A study of Mus musculus with 5 samples.

Results

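Gdpd3 and the genes beside it on mouse chromosome 7 were followed in 5 RNA-seq libraries of germinal centre B cells. The set held 10 genes, Gdpd3, Ypel3, Mapk3, Ppp4c, Tbx6, Ino80e, Kctd13, Taok2, Tmem219 and Coro1a, out of 23234 genes in the deposited table. Gdpd3 was selected on its measured values in these same libraries, where it was near 1 FPKM or below in one group and far above it in the other. The other 9 were selected because they lie beside it, with their values already known. FPKM is the number of sequenced fragments scaled by transcript length and by the mapped fragments of the library. Its sum over all genes ran from 631700 to 764700 between the libraries, so levels compare only roughly between them. Because of how the genes were selected, every contrast of the 10 genes between the groups is given as a description with its error. Tests are reported for other genes only.

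The Csk-targeted cells, 2 libraries labelled Csk(f/f), came from naive B cells that were floxed at Csk and carried ERT2cre(KI/+), B1-8hi(KI/+) and the CD45.1/2 marker. The comparison cells, 3 libraries labelled Csk(+/+), came from naive B cells with the same ERT2cre(KI/+), B1-8hi(KI/+) and CD45.1/2 alleles and an unmodified Csk. Csk holds Src family kinases in check by phosphorylating their C-terminal tail. ERT2cre is a recombinase active once tamoxifen is given, and B1-8hi is a heavy chain that binds the hapten NP. Both kinds of donor cell were put into C57BL/6J hosts, which keep their own B cells and which received NP-CGG in alum on day 0 and tamoxifen on days 8 and 9. Donor cells of the light zone that bound NP were sorted from spleen on day 11. The promoter that drives the recombinase is not stated in the labels used here. The design text calls the libraries biological replicates, and whether animals were pooled is not given.

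GDPD3 is an enzyme of the glycerophosphodiester phosphodiesterase family that cuts the head group from lysophospholipids and so makes lysophosphatidic acid, a lipid that signals through its own cell surface receptors. Its neighbours belong to unrelated pathways. MAPK3 (ERK1) is a terminal kinase of the RAS and MAP kinase cascade, TAOK2 is a kinase upstream of the stress MAP kinases, PPP4C is the catalytic subunit of protein phosphatase PP4, and CORO1A is an actin-binding coronin of blood cells. The human counterparts of these genes lie together in an interval that is recurrently lost or gained in people with neurodevelopmental disorders.

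Along the chromosome the 10 genes run in the order Coro1a, Mapk3, Gdpd3, Ypel3, Tbx6, Ppp4c, Ino80e, Taok2, Tmem219 and Kctd13, by the GRCm38 annotation. Mapk3 is the protein-coding gene just before Gdpd3 and Ypel3 the one just after it, and all of Mapk3, Gdpd3, Ypel3, Tbx6 and Kctd13 are on the + strand. Coro1a, Ppp4c, Ino80e, Taok2 and Tmem219 are on the - strand. The stretches that precede the starts of Gdpd3 and of its nearest downstream neighbour Ypel3 are shown because these adjacent genes had the largest and the next largest difference of the set. Both come from RefSeq promoters on GRCm38.p6, 5′ to 3′ on the + strand, and capitals mark CG pairs. The Gdpd3 stretch is 170 bases at chr7:126766164-126766333 and the Ypel3 stretch is 242 bases at chr7:126776713-126776954.
Gdpd3: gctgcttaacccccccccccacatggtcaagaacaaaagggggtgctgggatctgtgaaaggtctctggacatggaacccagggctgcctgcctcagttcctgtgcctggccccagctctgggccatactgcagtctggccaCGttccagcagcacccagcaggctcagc
Ypel3: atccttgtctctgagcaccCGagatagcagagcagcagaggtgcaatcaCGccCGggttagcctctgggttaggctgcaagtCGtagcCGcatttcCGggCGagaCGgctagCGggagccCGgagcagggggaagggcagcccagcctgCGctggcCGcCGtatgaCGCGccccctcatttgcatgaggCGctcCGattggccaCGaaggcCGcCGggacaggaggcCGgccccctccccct
The Gdpd3 stretch holds 1 CG pair, against a median of 3 in the same window of all 32851 RefSeq promoters, of which 29.6% hold 1 or none. The Ypel3 stretch holds 21 CG pairs, against a median of 5 in its window, and 86.4% of all promoters hold 21 or fewer there. The stretch before Gdpd3 thus has fewer CG pairs than the median of its window, and the stretch before Ypel3 has more. Each stretch was cut where the gene starts in the GRCm38 annotation. It thus holds 170 (Gdpd3) or 242 (Ypel3) of the 250 bases before the RefSeq start. The bases nearest the RefSeq start of Gdpd3 are therefore left out, and its full entry of 300 bases holds 7 CG pairs, equal to the median of 7.

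RefSeq entries of 300 bases, 250 before and 50 after the start, were found for 9 of the 10 genes, all but Mapk3. Ppp4c, Ino80e and Coro1a had a further entry, and counts are of first entries unless said otherwise. The first entries of Gdpd3 and Tbx6 held 7 CG pairs each, equal to the median of 7 over all entries, and those of the other 7 genes held 16 to 35. The entries were searched on both strands for TATAAA (recognised by TBP), CCAAT (recognised by NF-Y), GGGCGG (recognised by SP factors), CACGTG (an E-box), TGACG (part of the cAMP response element) and CCGGAA (the core of ETS sites). None of the 6 was found in the 300 bases of Gdpd3, which says only that these letters are not in this window. Ypel3 held CCAAT as well as TGACG and CCGGAA, each with 1 match in the stretch printed above. Among the 9 genes with an entry, TGACG was found in 6 and CCGGAA in 5 (6 with further entries), where 20.8% and 14.9% of all entries hold them. CCAAT was found in 4 and GGGCGG in 4 (5 with further entries), where 37.4% and 35.7% of all entries hold them. TATAAA was found in Tbx6 alone and CACGTG in Ino80e alone, where 13.6% and 7.15% of all entries hold them.

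Gdpd3 had 44.7 and 40.8 FPKM in the Csk(f/f) libraries, against 0.738, 0.870 and 0.627 FPKM in the Csk(+/+) libraries. Both Csk(f/f) libraries were high, all 3 Csk(+/+) libraries were low, and the groups were far apart compared with the spread within either. The means were 42.8 ± 2.77 FPKM (SD, n = 2) in Csk(f/f) and 0.745 ± 0.121 FPKM (SD, n = 3) in Csk(+/+), a ratio of 57.4. On the log2(FPKM + 1) scale, which understates changes of low genes, the difference was 4.65 ± 0.18 (SE), with a 95% interval of 4.22 to 5.07. Gdpd3 ranked 2058 and 2261 of the 10242 genes tested in the Csk(f/f) libraries, among the more abundant genes, and 10147, 10099 and 10036 in the Csk(+/+) libraries, near the bottom. From transcript length and an estimated depth, those levels correspond to roughly 1219 and 448 fragments in Csk(f/f) and 13.6, 19.8 and 8.70 fragments in Csk(+/+). The low level in Csk(+/+) cells was therefore above 0 in each library but rested on few fragments.

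A gene entered the tests with at least 1 FPKM in at least 2 libraries, and Gdpd3 did so through its 2 Csk(f/f) libraries alone, so any gene admitted in that way had to differ. Without either Csk(f/f) library it no longer entered. Its annotated span overlaps Gm9967, a transcript of the opposite strand that has no line in the table. Whether the authors' estimate used strand is not stated, so reads of the 2 cannot be told apart. The same limit holds for Ino80e (with Doc2a and Hirip3), Kctd13 (with Asphd1) and Coro1a (with Bola2). These overlapping genes lie on the opposite strand and have lines in the table. In bulk libraries, more cells of one kind and more RNA per cell cannot be told apart either.

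**Figure D1:**
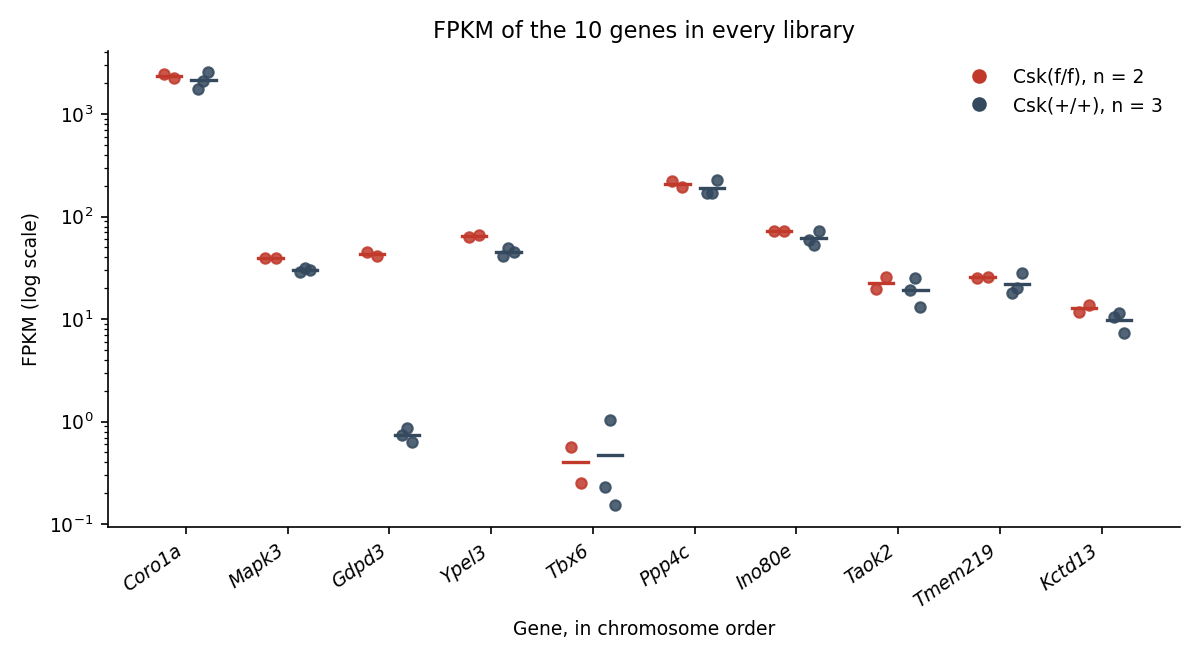
FPKM (log scale) of the 10 genes in every library, in chromosome order, with Csk(f/f) libraries (n = 2) to the left of Csk(+/+) libraries (n = 3); points are libraries and bars are group means. Gdpd3 sits at 40.8 to 44.7 FPKM in Csk(f/f) and below 1 FPKM in Csk(+/+), while each of the other genes differs by 1.43 times (Ypel3) or less in mean FPKM.

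Ypel3 encodes a small zinc-binding protein linked to growth arrest. It had 63.5 and 66.0 FPKM in the Csk(f/f) libraries, against 41.3, 49.8 and 44.9 FPKM in the Csk(+/+) libraries. The groups did not overlap, and the log2 difference was 0.51 ± 0.13 (SE; 95% interval 0.20 to 0.82). Mapk3, on the other side of Gdpd3, had 39.5 and 39.6 FPKM in the Csk(f/f) libraries, against 28.7, 31.3 and 30.0 FPKM in the Csk(+/+) libraries. Its groups did not overlap either, with a log2 difference of 0.39 ± 0.13 (SE; 95% interval 0.09 to 0.68). The 2 genes that flank Gdpd3 were thus higher by 1.43 and 1.32 times in mean FPKM, far less than Gdpd3 itself.

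The level of Gdpd3 relative to these flanking genes shows the same contrast within each library. Gdpd3 reached 1.13 and 1.03 times the FPKM of Mapk3 in the Csk(f/f) libraries, against 0.0257, 0.0278 and 0.0209 times in the Csk(+/+) libraries. Relative to Ypel3 it stood at 0.705 and 0.619 in Csk(f/f), against 0.0179, 0.0174 and 0.0140 in Csk(+/+). The ratio of Ypel3 to Mapk3, genes on either side of it, was 1.61 and 1.67 in Csk(f/f), against 1.44, 1.59 and 1.49 in Csk(+/+). Gdpd3 thus had about the level of its neighbour Mapk3 in Csk(f/f) cells, while the flanking genes kept nearly the same proportion to each other in all 5 libraries.

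Among the kinase and phosphatase genes further out, Taok2 had 19.8 and 25.6 FPKM in the Csk(f/f) libraries, against 19.3, 25.3 and 13.1 FPKM in the Csk(+/+) libraries. The groups overlapped, and the log2 difference of 0.26 ± 0.27 (SE) had an interval from -0.36 to 0.88. Ppp4c had 220 and 196 FPKM in Csk(f/f), against 169, 171 and 228 FPKM in Csk(+/+), with a log2 difference of 0.15 ± 0.17 (SE). Csk(+/+) replicate 3 was the highest of all 5 libraries for Ppp4c and the lowest for Taok2. Without it the log2 differences were 0.29 for Ppp4c and 0.02 for Taok2.

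Of the nuclear genes, Ino80e, a subunit of the INO80 chromatin remodelling complex, had 72.5 and 71.6 FPKM in Csk(f/f), against 59.1, 52.3 and 72.4 FPKM in Csk(+/+). Its groups overlapped through Csk(+/+) replicate 3, and the log2 difference was 0.24 ± 0.16 (SE). Tbx6, a T-box transcription factor of the embryonic mesoderm, had 0.563 and 0.253 FPKM in Csk(f/f), against 0.230, 1.03 and 0.154 FPKM in Csk(+/+). It was the only one of the 10 genes not to enter the tests, and its groups overlapped. Tbx6 lies just beyond Ypel3, so a gene near Gdpd3 stayed at a low level in both groups.

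Kctd13, an adaptor that brings RHOA to the CUL3 ubiquitin ligase, had 11.8 and 13.8 FPKM in Csk(f/f), against 10.5, 11.4 and 7.37 FPKM in Csk(+/+). Its groups did not overlap, but the gap between the nearest libraries was small and the log2 difference of 0.37 ± 0.22 (SE) had an interval from -0.13 to 0.87. Csk(+/+) replicate 3 was its lowest library, and without it the difference was 0.20. Tmem219, which encodes a receptor of the binding protein IGFBP3, had 25.2 and 25.9 FPKM in Csk(f/f), against 17.9, 20.2 and 27.9 FPKM in Csk(+/+). Coro1a was the most abundant of the set, with 2443 and 2250 FPKM in Csk(f/f), against 1737, 2089 and 2549 FPKM in Csk(+/+). For Tmem219 and Coro1a the groups overlapped, Csk(+/+) replicate 3 was the highest library, and the log2 differences were 0.23 ± 0.20 and 0.16 ± 0.22 (SE). Without that library they were 0.41 for Tmem219 and 0.30 for Coro1a.

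By mean FPKM the order in Csk(f/f) cells was Coro1a, Ppp4c, Ino80e, Ypel3, Gdpd3, Mapk3, Tmem219, Taok2, Kctd13 and Tbx6, and only Tmem219 and Taok2 were neighbours whose libraries overlapped. In Csk(+/+) cells the order was Coro1a, Ppp4c, Ino80e, Ypel3, Mapk3, Tmem219, Taok2, Kctd13, Gdpd3 and Tbx6. There the libraries of Tmem219 and Taok2 overlapped, and so did those of Gdpd3 and Tbx6. Gdpd3 was the only gene of the set to change its place relative to the others.

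In the limma fit over all 10242 genes, with an adjusted p under 0.05, 1 of the 9 genes that entered was called, Gdpd3, where 0.0781% of all genes were called in either direction and 0.0391% as higher. The selection of Gdpd3 used this contrast, so nothing is read from that count. The libraries did not overlap between the groups for 4 of the 9, Gdpd3, Ypel3, Mapk3 and Kctd13, all higher in Csk(f/f), where 20.7% of all genes did so as higher and 24.5% as lower. The 8 neighbours that entered all had a positive log2 difference, from 0.15 to 0.51 with a median of 0.25, beside a median of -0.01 over all genes.

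The transcripts of the neighbours are rich in GC, with a median of 57.3% over the 8, against 49.7% over all genes. Over the genes of the table, the median log2 difference was -0.40 in the fourth with the lowest transcript GC and 0.28 in the fourth with the highest. Ino80e, at 48.9%, had the lowest transcript GC of the neighbours, and its difference of 0.24 was close to their median. How far GC accounts for the differences of the neighbours was not tested beyond the correction that follows. After each library's trend with GC was subtracted, Ypel3 had a log2 difference of 0.19 ± 0.12 and Mapk3 of 0.09 ± 0.12 (SE), both with intervals that included 0. Of the 8 neighbours, 5 then stayed positive, with a median of 0.04 against 0.00 over all genes. With the correction and without Csk(+/+) replicate 3, a setting added after seeing the data, 6 of 8 were positive with a median of 0.17. In that setting Ino80e stood at 0.48, Ypel3 at 0.24, Kctd13 at -0.04 and Taok2 at -0.20. With all 5 libraries the corrected values were negative for Taok2 (-0.02), Tmem219 (-0.03) and Coro1a (-0.14), while Ino80e stood at 0.29. Gdpd3, with a transcript GC of 53.4%, remained at 4.47 ± 0.14 (SE). Gdpd3 thus kept its difference under the correction while those of Ypel3 and Mapk3 shrank by more than their standard errors.

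**Figure D2:**
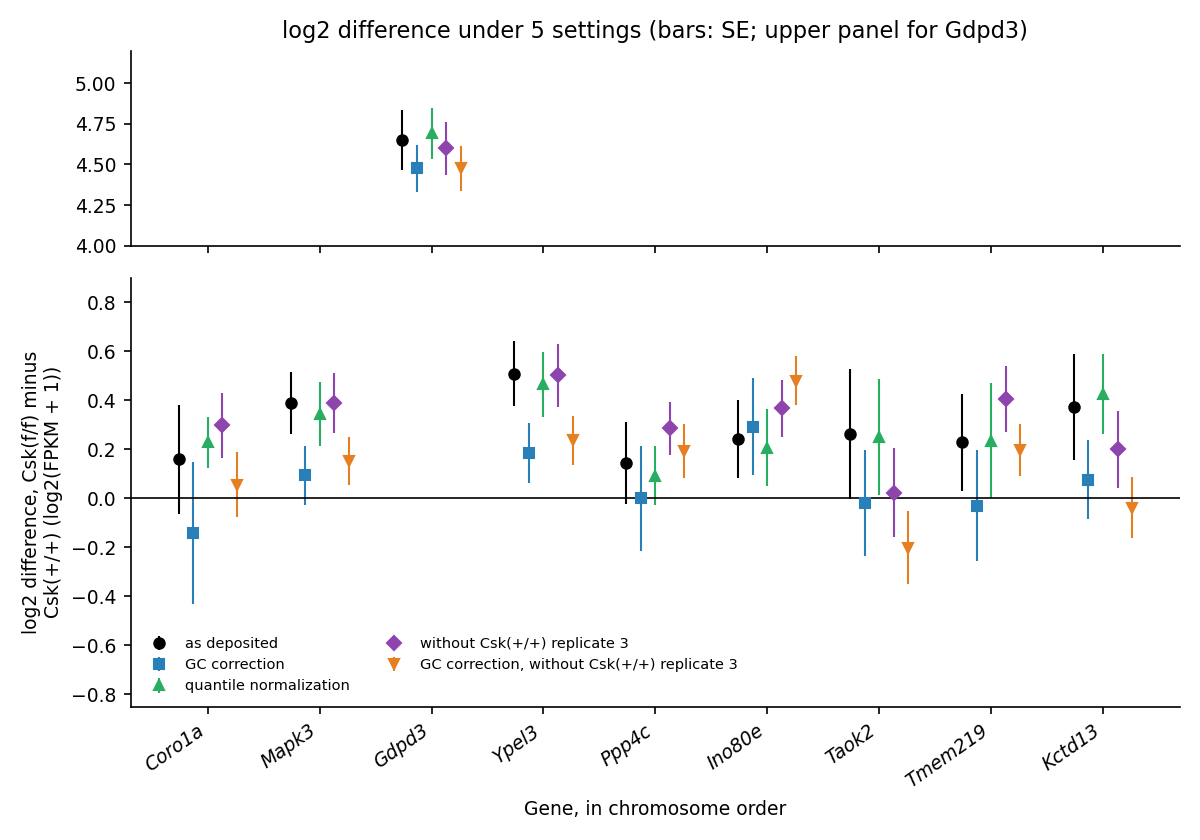
log2 difference, Csk(f/f) minus Csk(+/+), on the log2(FPKM + 1) scale for the 9 genes that entered the tests, under 5 settings, with SE bars; the upper panel starts at 4 and holds Gdpd3 alone. Gdpd3 stays between 4.47 and 4.69 in all 5, while Ypel3 and Mapk3 drop towards 0 with the GC correction and Taok2 and Kctd13 lie on either side of 0.

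The rest of the interval was examined for a wider change around Gdpd3. Among the 25 tested genes to each side of it, 42 were not of the set, and 0 of them passed the limma test at an adjusted p under 0.05. At an unadjusted p under 0.05, 5 were higher and 1 lower in Csk(f/f), where 8.07% of all genes were higher and 13.6% lower. Jmjd5, Spns1 and Cln3 had the largest differences in size among them. Jmjd5, an oxygenase of the JmjC family, had 4.82 and 4.74 FPKM in Csk(f/f), against 7.17, 8.71 and 7.40 FPKM in Csk(+/+), a log2 difference of -0.60 (limma adjusted p = 0.169). Spns1, a lysosomal transporter of lysophospholipids, had a log2 difference of 0.49 (limma adjusted p = 0.208), and Cln3, whose protein acts in the clearance of glycerophosphodiesters from lysosomes, one of 0.48 (limma adjusted p = 0.334). The median over the 42 genes was 0.21 as deposited and -0.01 after the GC correction. No gene on either side of Gdpd3 in this window thus came near its difference of 4.65.

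**Figure D3:**
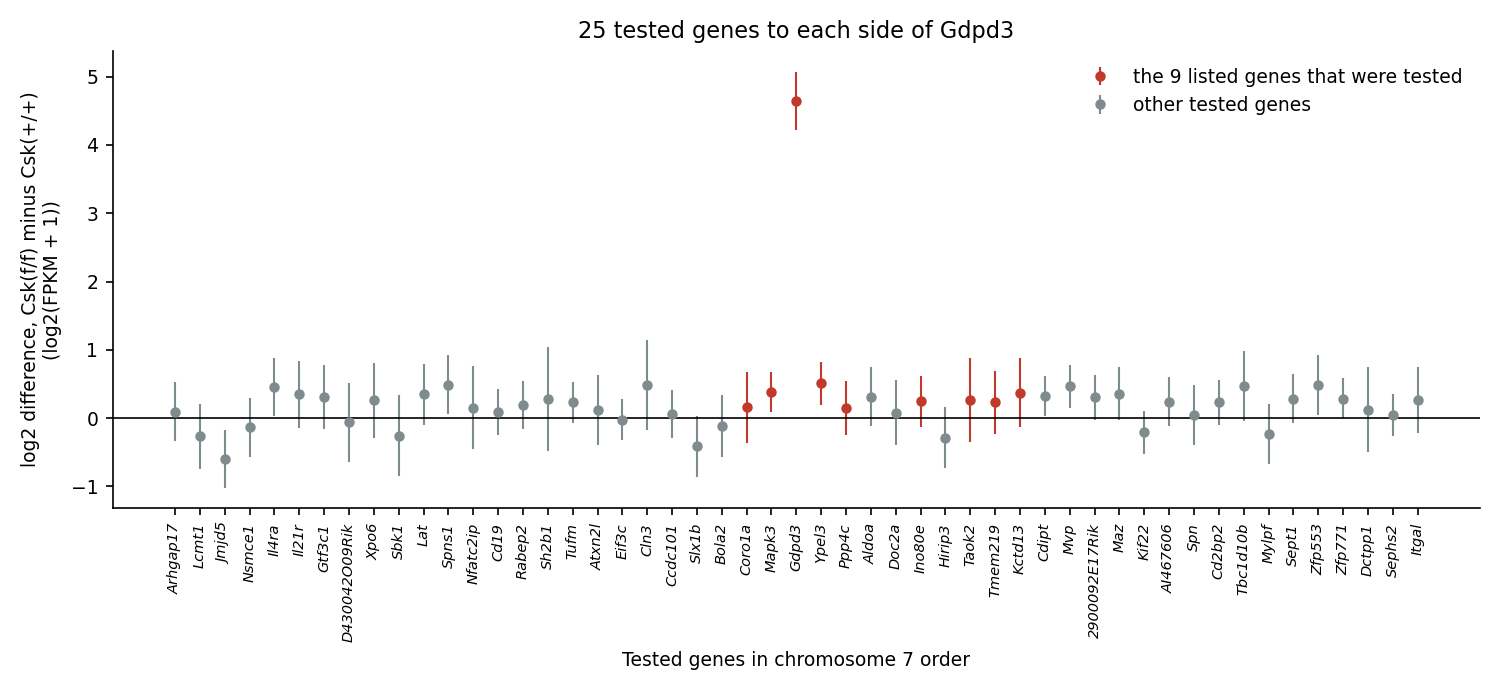
log2 difference, Csk(f/f) minus Csk(+/+), with its 95% interval for Gdpd3 and the 25 tested genes to each side, in gene order; red marks the 9 genes of the set that entered the tests and grey the 42 others. Gdpd3 stands alone at 4.65, and the other genes lie between -0.60 and 0.51.

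A list of genes of the same interval, compiled by name, shares 19 of its 33 tested genes with the 42 just described. By limma, 0 of the 33 were called. At an unadjusted p under 0.05 there were 4 higher in Csk(f/f) and 0 lower, where 8.07% of all genes were higher and 13.6% lower. The median log2 difference was 0.20. After the GC correction 1 was higher and 4 were lower at that threshold, beside 4.89% and 5.07% of all genes, and the median was 0.04. Along the whole of chromosome 7, 768 genes were tested and 5 were called, Gdpd3 and 4 others at a distance from it. Inppl1, which encodes the inositol phosphatase SHIP2, lies 125 tested genes before Gdpd3 and had 16.0 and 17.1 FPKM in Csk(f/f), against 4.50, 4.12 and 3.03 FPKM in Csk(+/+) (log2 difference 1.86, limma adjusted p = 0.0333). Gprc5b, an orphan receptor gene that lies 50 tested genes before Gdpd3, had 2.01 and 1.90 FPKM in Csk(f/f), against 0, 0.0327 and 0 FPKM in Csk(+/+) (limma adjusted p = 0.0380). It entered the tests through the Csk(f/f) libraries alone, as Gdpd3 did.

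The other 2 genes of chromosome 7 were lower in Csk(f/f). Trim12a, of the tripartite motif family, lies 105 tested genes before Gdpd3 and had 1.11 and 0.362 FPKM in Csk(f/f), against 21.1, 18.6 and 18.6 FPKM in Csk(+/+) (log2 difference -3.58, limma adjusted p = 0.00107). Nucb2, the gene of the nesfatin precursor, lies 60 tested genes before Gdpd3 and had 0.366 and 0.138 FPKM in Csk(f/f), against 4.21, 4.44 and 6.28 FPKM in Csk(+/+) (log2 difference -2.25, limma adjusted p = 0.0230). The table as a whole had 8 called genes, and the 3 that lie on other chromosomes have transcripts under 200 bases. Without Csk(+/+) replicate 3, 411 genes were called in the table, or 4.05% of those tested, and of the genes of chromosome 7 outside the window around Gdpd3 14 were higher and 20 lower, or 4.76%. With all 5 libraries the share called outside the window was 0.558%, or 4 of 717, beside 0.0781% over all genes. A log2 difference of at least 1 in size was reached by 23 of the 768 tested genes of chromosome 7, or 2.99%, against 0.279% to 2.18% on the other autosomes and the X chromosome. The 23 include Gdpd3 itself and the small RNA genes Mir343, Snord15b, Snord32a, Snord33, Snord34, Snord35a, Snord35b, Snora30 and Snora52. The shares at a log2 difference of at least 1 in size were not recounted without small RNA genes. Those shares therefore do not set chromosome 7 apart for longer transcripts. Csk, the targeted gene, lies on chromosome 9. The labels give a C57BL/6 background for all 5 libraries. Whether chromosome 7 of the floxed donors carries sequence of another strain, which would bear on Gdpd3 and the other genes called there, was not tested.

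**Figure D4:**
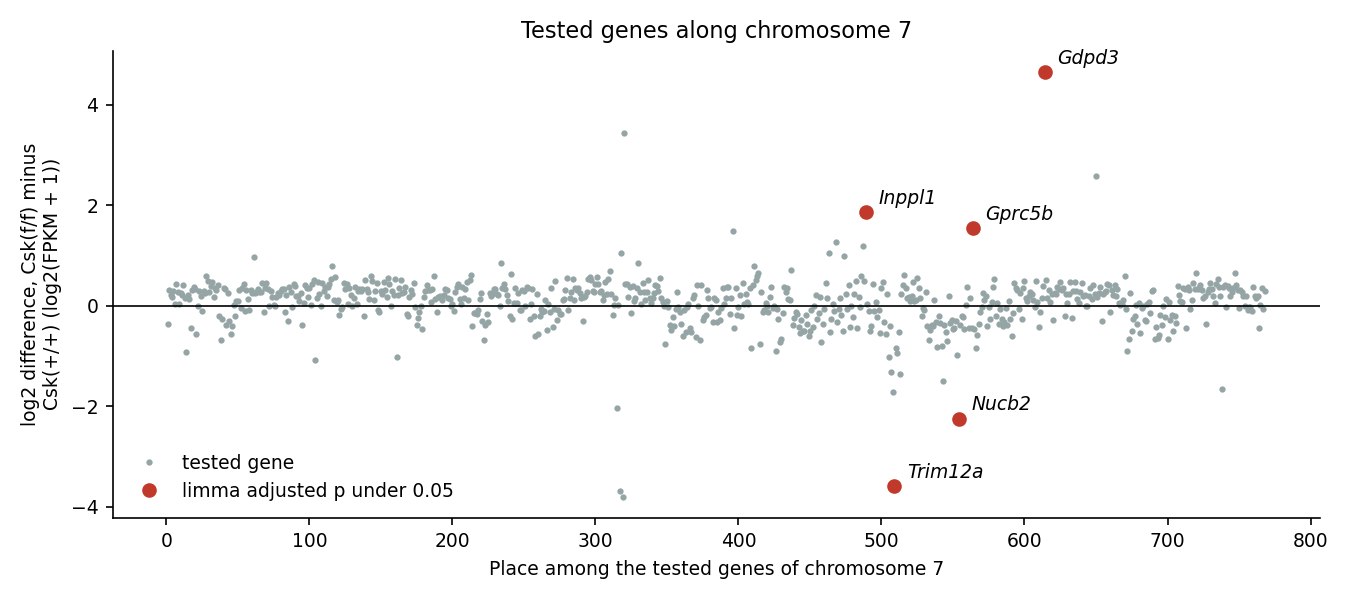
log2 difference, Csk(f/f) minus Csk(+/+), of the 768 tested genes of chromosome 7, by their place in gene order; red marks the 5 genes with a limma adjusted p under 0.05. Gdpd3 is the highest, and the others called, Inppl1, Trim12a, Nucb2 and Gprc5b, lie 50 to 125 tested genes before it.

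The genes that act with each member were taken from lists compiled by function. Of the 103 tested genes in all of these lists, 0 passed the limma test at an adjusted p under 0.05, and at an unadjusted p under 0.05 there were 11 higher in Csk(f/f) and 16 lower, or 10.7% and 15.5%, beside 8.07% and 13.6% of all genes. Without Csk(+/+) replicate 3, limma called 2 of them as higher and 6 as lower, or 7.77%, beside 4.05% of all genes. With the GC correction added to that setting, 0 of them were called, beside 40 genes of the whole table. For Gdpd3 itself the list held its family and the enzymes and receptors of lysophospholipids. By limma's adjusted p, 0 of its 21 tested genes were called, at an unadjusted p under 0.05 there were 3 higher in Csk(f/f) and 2 lower, and the median log2 difference was 0.25 as deposited and 0.05 after the GC correction. Lpar5, a receptor for lysophosphatidic acid, had 7.41 and 9.53 FPKM in Csk(f/f), against 5.36, 5.58 and 3.46 FPKM in Csk(+/+) (log2 difference 0.72, limma adjusted p = 0.179). Gde1, a family member that can also release lysophosphatidic acid, had 34.6 and 34.2 FPKM in Csk(f/f), against 24.0, 27.8 and 27.9 FPKM in Csk(+/+) (log2 difference 0.36, limma adjusted p = 0.206).

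Relative to Gde1, Gdpd3 stood at 1.29 and 1.19 times its FPKM in the Csk(f/f) libraries, against 0.0308, 0.0312 and 0.0224 times in the Csk(+/+) libraries. Gdpd3 was thus the most abundant family member in Csk(f/f) cells, whereas Gde1 was in Csk(+/+) cells. The remaining family members were looked at after their values had been seen. Gpcpd1, which acts on glycerophosphocholine, had 13.2 and 10.3 FPKM in Csk(f/f), against 20.2, 14.4 and 15.3 FPKM in Csk(+/+). Gdpd5 had 0.630 and 0.764 FPKM in Csk(f/f), against 0.275, 0.278 and 0.138 FPKM in Csk(+/+), and was too low to enter the tests. Gdpd1, the closest relative of Gdpd3 by function, had 0.0509 and 0.0420 FPKM in Csk(f/f), against 0, 0.144 and 0 FPKM in Csk(+/+). Gdpd4 was listed at 0 in every library, and so was Enpp2, which encodes autotaxin, the secreted enzyme that makes lysophosphatidic acid.

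**Figure D5:**
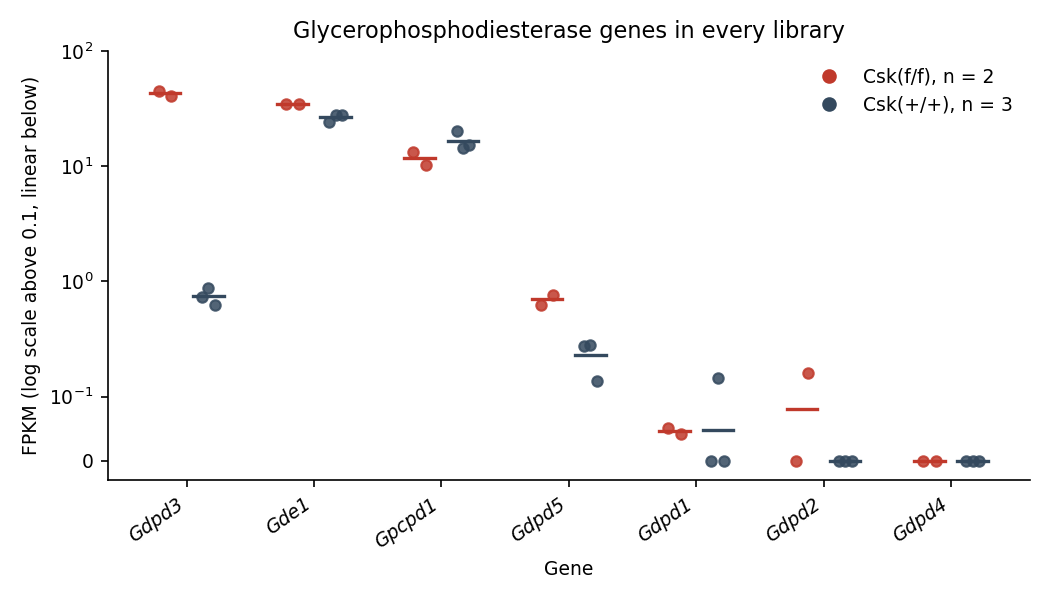
FPKM of Gdpd3 and 6 other glycerophosphodiesterase genes in every library (log scale above 0.1 FPKM, linear below), with Csk(f/f) libraries to the left of Csk(+/+) libraries; bars are group means. Gdpd3 differs by 57.4 times in mean FPKM, while Gde1 and Gpcpd1 differ by less than 2 times and Gdpd1, Gdpd2 and Gdpd4 stay below 0.2 FPKM.

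For Mapk3 the list held the RAS and MAP kinase cascade, of which 0 of 21 tested genes were called by limma, while at an unadjusted p under 0.05 there were 3 higher in Csk(f/f) and 4 lower. Rasgrp3, a RAS activator of B cells, had 24.5 and 19.1 FPKM in Csk(f/f), against 32.9, 32.8 and 34.1 FPKM in Csk(+/+) (log2 difference -0.60, or -0.32 after the GC correction, limma adjusted p = 0.154 as deposited). Of the 8 other PP4 genes tested beside Ppp4c, 0 were called by limma, and at an unadjusted p under 0.05 there were 0 higher in Csk(f/f) and 3 lower, with a median of -0.25 as deposited and -0.02 after the GC correction. Ppp4r2, a regulatory subunit, had a log2 difference of -0.69 (limma adjusted p = 0.169), which was -0.26 after the GC correction.

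Of the partners of the remaining genes, 0 were called by limma with all 5 libraries. Among 14 INO80 genes the smallest p was that of Uchl5, a deubiquitinase of the complex, with a log2 difference of -0.89, or -0.41 after the GC correction (limma adjusted p = 0.129 as deposited), and Ino80, the ATPase, had one of -0.22 (limma adjusted p = 0.638). Among 11 genes of CUL3 and its adaptors, Cul3 had a log2 difference of -0.81, or -0.31 after the GC correction (limma adjusted p = 0.155 as deposited), and Klhl6, an adaptor needed for germinal centres, one of -0.47 (limma adjusted p = 0.154). Of 15 coronin and actin genes, 6 had a positive and 9 a negative difference, and at an unadjusted p under 0.05 there were 2 higher in Csk(f/f) and 3 lower. Actr2, of the actin-nucleating ARP2/3 complex, had the largest in size at -0.71, or -0.25 after the GC correction (limma adjusted p = 0.154 as deposited). It was added after its values were seen. Among the coronins, Coro7 had a log2 difference of 0.62 (limma adjusted p = 0.154), Coro1b one of 0.47 (limma adjusted p = 0.173) and Coro1c one of 0.20 (limma adjusted p = 0.375). Of 8 genes around the TAO kinases, Taok3 had a log2 difference of -0.30 (limma adjusted p = 0.279) and Taok1 one of -0.33, or 0.12 after the GC correction (limma adjusted p = 0.370 as deposited). Ypel5, the only other YPEL gene to enter, had a log2 difference of -0.17, or 0.17 after the GC correction (limma adjusted p = 0.581 as deposited). Tbx21 (-0.10) and Mga (-0.40) were the T-box genes that entered, and Igfbp3, the ligand of Tmem219, was listed at 0 in every library.

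The genes whose profile over the 5 libraries was most like that of Gdpd3 were found by the root mean square difference between centred log2(FPKM + 1) profiles. Inppl1 was nearest at 1.37, followed by Bhlhe40 at 1.48, Gprc5b at 1.52, Abhd2 at 1.56 and Fam43a at 1.61. Gdpd3's own profile had a root mean square size of 2.28, so even the nearest gene left much of it unmatched. Bhlhe40, a transcription factor gene, had 11.0 and 12.7 FPKM in Csk(f/f), against 3.75, 4.20 and 1.55 FPKM in Csk(+/+). Abhd2, which encodes a lipid hydrolase, had 40.1 and 44.7 FPKM in Csk(f/f), against 15.7, 16.9 and 11.2 FPKM in Csk(+/+). It lies on chromosome 7, as do Inppl1 and Gprc5b. Bhlhe40, Abhd2 and Fam43a were not called (limma adjusted p = 0.132, 0.0740 and 0.128). Abhd2 had a similar level to Gdpd3 in Csk(f/f) cells but was also well above 1 FPKM in Csk(+/+) cells.

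The labels and cell identity were checked on the same table. Csk had 453 and 476 FPKM in the Csk(f/f) libraries, against 378, 436 and 415 FPKM in the Csk(+/+) libraries, with a log2 difference of 0.18 (95% interval -0.14 to 0.50; limma adjusted p = 0.439). Its sign turned with the GC correction, to -0.14. A two-sided exact permutation test, which doubles the smaller tail, gave p = 0.2. With 10 splits this is the smallest p that the test can give. As deposited, both Csk(f/f) libraries were above every Csk(+/+) library. The libraries labelled Csk(f/f) thus had no detectably lower Csk transcript, and as the floxed exons are not given, a gene-level FPKM leaves the genotype unchecked. The 5 B cell markers summed to 4019 and 3760 FPKM in Csk(f/f), against 2864 to 4018 FPKM in Csk(+/+), and 6 germinal centre markers to 823 to 847 against 793 to 810 FPKM. The light zone markers Cd83 and Cd86 summed to 578 and 544 FPKM in Csk(f/f), against 459 to 476 FPKM in Csk(+/+). The 3 plasma cell markers summed to 117 and 102 FPKM in Csk(f/f), against 80.7 to 93.9 FPKM in Csk(+/+), nearly all of it Xbp1. The light zone, plasma cell and germinal centre sums were thus higher in both Csk(f/f) libraries, and their part in the difference of Gdpd3 was not tested.

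Markers of other cell types that a sort could let through were summed in the same way. The 5 T cell markers in the table summed to 0.159 to 0.205 FPKM in Csk(f/f), against 0.00344 to 0.602 FPKM in Csk(+/+), with Cd3e and Cd3g at 0 in all libraries. The 4 epithelial markers summed to 1.12 to 1.22 FPKM in Csk(f/f), against 0.648 to 1.24 FPKM in Csk(+/+). The 4 neutrophil markers were at 0 in both Csk(f/f) libraries, against 0 to 2.65 FPKM in Csk(+/+), with Mpo at 0 throughout. The 4 macrophage markers summed to 23.7 and 24.1 FPKM in Csk(f/f), against 11.6 to 21.5 FPKM in Csk(+/+), and their part in the difference of Gdpd3 was not tested. Erythroid markers ranged from 100 to 380 FPKM in Csk(f/f) and from 140 to 784 FPKM in Csk(+/+), without a split by group. Platelet markers summed to 1.30 to 1.34 FPKM in Csk(f/f), against 0.474 to 1.89 FPKM in Csk(+/+), and stromal markers to 16.9 to 18.8 against 12.6 to 20.4 FPKM. The stromal sum was nearly all Pecam1, and Col1a1, Col3a1 and Pdgfrb had at most 0.0557 FPKM in any library.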

How the data were processed

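The 5 libraries of sorted cells were sequenced as RNA-seq (NEBNext Ultra RNA kit, per the labels). The authors deposited one FPKM per gene and library. TopHat2 2.0.8, Cufflinks 2.1.1 and mm9 are named in the submitters' processing notes. The annotation, the use of strand and any scaling between libraries are not given in the sources used here. The genes of the set, the lists and the alternatives were chosen with earlier results of these data known.

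Genes with at least 1 FPKM in at least 2 libraries (10242 of 23234) were fitted as log2(FPKM + 1) for Csk(f/f) minus Csk(+/+) by limma 3.58.1 (R 4.3.3, trended prior), with Benjamini-Hochberg adjustment over all of them and a threshold of 0.05. Named genes were the 10 of the set, those of each list with the smallest p or a close role, the 3 largest differences in the window, and the 5 profiles nearest to Gdpd3. Gene order, strand, length and GC came from a GRCm38 annotation by name, so no mm9 coordinates are printed. Of the genes tested, 10119 had a GC value, and the GC correction subtracted a lowess trend (span 0.3) from each library. Counts were not analysed here, and depth is known only as an estimate from the smallest FPKM steps: in units of 1e+06 fragments, 23.7 and 9.56 in Csk(f/f) and 12.1 to 19.8 in Csk(+/+). With 2 and 3 libraries, the p-values set each difference against the spread between these libraries, with variances moderated across genes by limma. As pooling of animals is not given, what that spread represents is not known. One gene named with the lists is not reported here.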

Additional observations from a re-analysis of the deposited data

How the results depend on the processing

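The log2 difference of Gdpd3, which was selected on this contrast, ranged from 3.05 with a pseudocount of 5 to 5.67 with a pseudocount of 0.1 over the 12 alternatives that could be fitted. Without either Csk(f/f) library it was under the filter on low values, so the count of genes of the set called ran from 0 to 1 when 1 library was left out. Of all genes, 8 were called, 5 with no filter, 40 with the GC correction once Csk(+/+) replicate 3 was also left out (chosen after seeing the data), and 5 to 411 when 1 library was left out. The highest of these was without Csk(+/+) replicate 3. With a replicate block 492 genes of the table and 7 family and partner genes were called. The replicate numbers are shared by name only, with correlations of -0.13 and 0.11 between same-numbered libraries, and Csk(+/+) replicate 3 has no partner in that fit. Family and partner genes called ran from 0 to 8 when 1 library was left out, with 8 without Csk(+/+) replicate 3. Once the GC correction was added to leaving out that library, 0 were called. None of the 56 other genes of the interval was called by limma under any alternative. With the GC correction the Csk log2 difference was -0.14, and also without Csk(+/+) replicate 3 it was -0.075, against 0.18 as deposited; the GC trend was the only change in the first. With that last setting Kctd13 stood at -0.04 and Taok2 at -0.20. The number of libraries and the few fragments of Gdpd3 in Csk(+/+) limit the precision of its ratio.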
